A study of Mus musculus with 6 samples.

Results

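The simple epithelial keratin genes Krt7, Krt8, Krt18, Krt19, Krt20, Krt23 and Krt80 were followed by bulk RNA sequencing of mouse intestinal organoids, small cultures of intestinal epithelium. They were chosen by symbol, as 7 of the 31227 genes in the table, and all 7 passed the filter on low counts, which left 15503 genes. The groups were wild type (WT), Smad4-deficient (Smad4 KO) and Smad4-deficient with 0.5 nM TGF-β (Smad4 KO + TGF-β), with 2 libraries each. All 3 groups were grown in medium with EGF, Noggin and R-spondin1, and every title carries 48 h. Whether the treated organoids received TGF-β once, for 48 h, or again in a second feeding of the same length is ambiguous in the protocol. TGF-β signals through SMAD proteins, for which Smad4 is the shared partner. The labels do not say how or where Smad4 was deleted, what age or strain the animals were, or whether replicates came from separate cultures, so p-values measure only the spread between these libraries, which may be technical. No WT organoids with TGF-β were analysed here, so dependence of a response on Smad4 was not tested, and a difference in organoid line cannot be told apart from genotype.

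Keratins are the intermediate filament proteins of epithelial cells. A filament is built from obligate pairs of a type II and a type I keratin, so neither kind assembles alone. Krt7, Krt8 and Krt80 are type II, and Krt18, Krt19, Krt20 and Krt23 are type I. In the intestinal epithelium Krt8 is the main type II keratin and pairs with Krt18, Krt19 and Krt20, of which Krt20 marks differentiated cells away from the crypt. Krt7 is known mainly from ducts, lung and bladder, and Krt23 and Krt80 are less studied.

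The libraries held 40.55 to 50.7 M (mega) deposited units, an estimate of counts in which a fragment appeared to add about 4 units. Levels are given as CPM, counts per M after TMM scaling of library sizes. Smad4 stood at 99.37 and 109.46 CPM in WT libraries, 21.66 and 23.07 CPM in Smad4 KO and 25.19 and 29.52 CPM in Smad4 KO + TGF-β, so the targeted gene went with its labels. A deleted stretch of Smad4 would not be visible in a count over the gene. Replicates correlated across genes at 0.9705 to 0.9757 (log2 CPM). If a fragment adds 4 units, which is inferred, they differed by more than sampling noise (chi-square per degree of freedom 5.16 to 6.14). Markers of other tissues were scarce: the summed level of 6 fibroblast and smooth muscle genes was at most 1.22 CPM with Col1a2, Col3a1 and Dcn at 0 in all 6 libraries, and that of 3 endothelial genes was at most 0.764 CPM with Cdh5 and Kdr at 0. The 5 leukocyte genes summed to 3.62 to 6.5 CPM.

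The type II genes Krt80, Krt7 and Krt8 and the type I gene Krt18 lie on chromosome 15, and the type I genes Krt20, Krt23 and Krt19 on chromosome 11 (GRCm38, GENCODE vM21). Krt8 (ENSMUSG00000049382, chr15:101996698-102004482, minus strand, 9 exons) and Krt18 (ENSMUSG00000023043, chr15:102028180-102032027, plus strand, 7 exons) are neighbours. Krt20 (ENSMUSG00000035775, chr11:99428403-99438150) and Krt23 (ENSMUSG00000006777, chr11:99477974-99493137) are both on the minus strand with 8 exons each. In the edgeR fit of all 6 libraries they moved in opposite directions in both genotype and treatment comparisons. The 1.24-fold fall of Krt23 in Smad4 KO and the 1.15-fold fall of Krt20 with TGF-β were not called in every alternative fit. The 250 bases before the RefSeq start sites of Krt20 and Krt23 (GRCm38.p6, minus strand) are shown to set the pair side by side. Capitals mark matches, on either strand, to CATTCC, the core motif of TEAD factors, or to the AP-1 motif TGANTCA.
Krt20, chr11:99438154-99438403: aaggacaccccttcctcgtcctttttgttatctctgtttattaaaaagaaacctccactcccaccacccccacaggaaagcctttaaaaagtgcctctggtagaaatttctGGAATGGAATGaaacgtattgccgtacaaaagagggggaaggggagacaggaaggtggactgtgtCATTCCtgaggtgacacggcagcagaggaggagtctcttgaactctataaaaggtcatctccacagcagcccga
Krt23, chr11:99493121-99493370: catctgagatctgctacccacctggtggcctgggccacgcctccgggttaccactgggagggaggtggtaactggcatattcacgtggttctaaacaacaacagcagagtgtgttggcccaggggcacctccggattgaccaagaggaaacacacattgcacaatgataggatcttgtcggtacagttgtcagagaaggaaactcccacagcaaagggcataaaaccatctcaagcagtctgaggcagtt
The Krt20 window held 3 matches to CATTCC, starting at bases -139, -134 and -74 before the start site, the first pair sharing a base, and a TATAAA box at -29. At least 1 CATTCC match was present in 12.6% of the 32851 mouse promoter windows of this length in the RefSeq table. The Krt23 window held none. Neither window held TGANTCA, which 6.75% of all windows did. Other motifs were searched as well. CACCC matched at 2 places in the Krt20 window and 0 in that of Krt23 (at least 1 match in 52.0% of all windows). TTTAT, searched for CDX factors, matched at 2 and 1 places (37.3%). In the Krt20 window 1 of these, at -28 on the opposite strand, consists of letters of the TATAAA box at -29. It is therefore not a separate motif. The Krt23 match starts at -31. Neither window held the letters searched for SMAD (CAGACA), GRHL (AACCNGTT) or the GC box (GGGCGG). Windows of the other keratins are not used here. These matches are a description of letters, not of bound sites.

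Krt8, the most abundant of the 7, rose at each step. It stood at 2216.8 and 2210.23 CPM in WT libraries, 3458.31 and 3513.79 CPM in Smad4 KO and 5194.42 and 5070.36 CPM in Smad4 KO + TGF-β, with no overlap between any groups. Krt19, the smallest keratin, which lacks a tail domain, stood at 1081.81 and 1130.11 CPM in WT libraries, 2031.41 and 2142.61 CPM in Smad4 KO and 3373.97 and 3628.11 CPM with TGF-β, again in the same order without overlap. Krt18 behaved differently from both: the WT libraries (708.6 and 732.95 CPM) and the Smad4 KO libraries (706.3 and 721.46 CPM) overlapped, and only the treated libraries, at 1198.87 and 1216.48 CPM, stood apart. Krt7 showed the steepest climb, from 257.88 and 246.18 CPM in WT through 463.18 and 474.49 CPM in Smad4 KO to 1251.11 and 1244.77 CPM with TGF-β.

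Krt20 was lowest in WT, at 76.93 and 80.57 CPM, and highest in Smad4 KO, at 239.73 and 245.8 CPM, with the treated libraries at 215.95 and 205.52 CPM between them. Krt23 was lowest in Smad4 KO, at 69.0 and 73.59 CPM, against 86.65 and 90.75 CPM in WT and 124.24 and 121.83 CPM with TGF-β. Krt80, at 9.262 and 10.15 CPM in WT libraries, 7.865 and 7.681 CPM in Smad4 KO and 12.52 and 10.99 CPM with TGF-β, was far scarcer than the others. Krt23 and Krt80 were both lowest in Smad4 KO, although for Krt80 the step from WT did not pass its test.

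**Figure D1:**
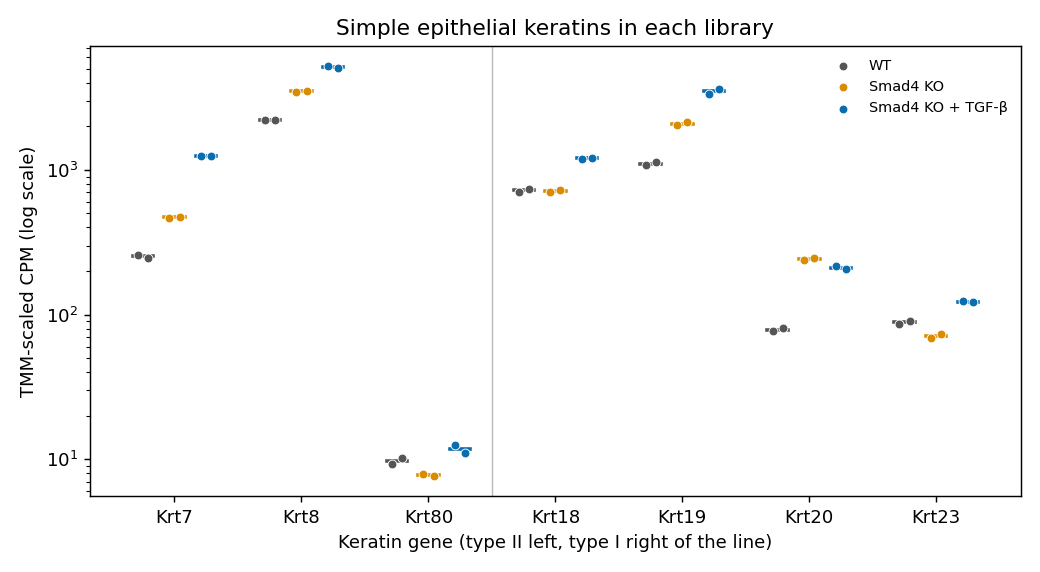
TMM-scaled CPM (log axis) of the 7 keratins, with 1 point per library, a bar at the group mean, and groups in grey (WT), orange (Smad4 KO) and blue (Smad4 KO + TGF-β). Krt7, Krt8 and Krt19 climb in both steps, Krt18 moves only in the second, and Krt20 peaks in Smad4 KO.

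The first comparison set Smad4 KO against WT, both without TGF-β. Krt20, Krt19, Krt7 and Krt8 were higher in Smad4 KO and Krt23 was lower, while Krt18 and Krt80 did not pass. So 5 of 7 keratins passed at an edgeR adjusted p under 0.05 (n = 2 per group), where 30.3% of all genes tested did. In bulk RNA, fewer cells of a type and less RNA per cell cannot be told apart. Krt20 was 3.08-fold higher (log2 fold change 1.62 ± 0.052 SE, edgeR adjusted p = 5.77e-06). Krt19 was 1.89-fold higher (0.92 ± 0.043, edgeR adjusted p = 2.69e-05), Krt7 1.86-fold higher (0.90 ± 0.032, edgeR adjusted p = 9.16e-06) and Krt8 1.57-fold higher (0.66 ± 0.016, edgeR adjusted p = 1.91e-06). Higher calls made up 16.9% of all genes. Krt23 was 1.24-fold lower (log2 fold change -0.31 ± 0.06, edgeR adjusted p = 0.0093), against 13.4% of all genes called lower, and without WT replicate 2 its adjusted p was 0.0522. For Krt18 the log2 fold change was -0.01 ± 0.027 (95% interval -0.08 to 0.05, edgeR adjusted p = 0.746), and its sign turned without WT replicate 2 (0.011) or Smad4 KO replicate 1 (0.002). Krt80 was not separated at this depth (log2 fold change -0.32, 95% interval -0.67 to 0.02, edgeR adjusted p = 0.145). The median log2 fold change was 0.66 over the 7 keratins and -0.021 over all genes.

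Krt20 is a keratin of mature enterocytes and goblet cells, and markers of both were read beside it. The 12 enterocyte markers, which serve digestion and absorption, summed to 4378 to 4380 CPM in WT libraries, 14068 to 14081 CPM in Smad4 KO and 10059 to 10086 CPM with TGF-β, a sum in the same order of groups as Krt20. In Smad4 KO against WT 11 of the 12 were higher and 0 lower, beside 16.9% and 13.4% of all genes tested. In the treated against the untreated Smad4 KO group 1 was higher and 10 lower, beside 7.78% and 8.48%. In the treated group against WT 7 were higher and 2 lower, beside 20.7% and 19.0%. The 1 higher and these 2 lower are shares near those of all genes. Not every member had the order of the sum. Sis, Fabp2, Slc5a1 and Mep1a were lower in both treated libraries than in either WT library, and Vil1 was highest in the treated libraries. Fabp2, Mep1a and Vil1 were named after their values were seen. Sis, the brush border sucrase-isomaltase, stood at 1212.09 and 1217.87 CPM in WT libraries. It was at 2773.82 and 2758.64 CPM in Smad4 KO and 1181.52 and 1185.47 CPM with TGF-β. The 8 goblet markers summed to 4625 to 4630, 3697 to 3806 and 1920 to 1933 CPM in the 3 groups, of which Fcgbp gave 2729.21 and 2736.65 CPM in WT. Of these 8, 2 were higher and 4 lower in Smad4 KO against WT, beside 16.9% and 13.4% of all genes. With TGF-β over Smad4 KO 0 were higher and 7 lower, beside 7.78% and 8.48%. The 10 crypt base stem cell markers went from 7304 to 7403 CPM in WT to 4356 to 4369 CPM in Smad4 KO and 2935 to 2969 CPM with TGF-β. The 7 Paneth cell markers were at 7980 to 8007, 3134 to 3293 and 3168 to 3252 CPM, and the 8 enteroendocrine markers at 1008 to 1018, 405.7 to 422.0 and 390.9 to 404.5 CPM, in the same order of groups. The 8 tuft markers stayed at 23.1 CPM or below, with Il25 at 0. The part of these cell types in the keratin differences was not tested.

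The second comparison asked what TGF-β did within Smad4-deficient organoids. Krt7, Krt23, Krt18, Krt19, Krt80 and Krt8 were higher with TGF-β and Krt20 was lower, so all 7 keratins passed (edgeR adjusted p under 0.05, n = 2 per group), where 16.3% of all genes did, 7.78% higher and 8.48% lower. Krt7 was 2.66-fold higher (log2 fold change 1.41 ± 0.032 SE, edgeR adjusted p = 6.41e-06). Krt23 was 1.73-fold higher (edgeR adjusted p = 0.00042), Krt18 1.69-fold (edgeR adjusted p = 2.85e-05), Krt19 1.68-fold (edgeR adjusted p = 0.000137) and Krt8 1.47-fold (edgeR adjusted p = 1.37e-05). The median was 0.75 over the keratins on the log2 scale and -0.008 over all genes.

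The other 2 calls of this comparison were small or rested on few reads. Krt20 was 1.15-fold lower with TGF-β (log2 fold change -0.20 ± 0.05, edgeR adjusted p = 0.0399), and its adjusted p was 0.0934 to 0.195 without either library of Smad4 KO or of Smad4 KO + TGF-β. Krt80 was 1.51-fold higher (0.60 ± 0.14, edgeR adjusted p = 0.0359), and its adjusted p was 0.0549 to 0.175 when any 1 of the 6 libraries was left out and 0.0516 in a fit of the 4 libraries compared.

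Against WT, 6 of the 7 keratins were higher in Smad4 KO with TGF-β and 0 lower, where 20.7% of all genes were called higher and 19.0% lower, 39.7% in all (edgeR, n = 2 per group). This comparison shares its libraries with the other pair and is not independent of them. Krt7 was 4.95-fold higher (log2 fold change 2.31 ± 0.033, edgeR adjusted p = 2.04e-07), Krt19 3.17-fold, Krt20 2.68-fold, Krt8 2.32-fold, Krt18 1.68-fold and Krt23 1.39-fold (edgeR adjusted p = 0.00124). Krt80 did not pass (log2 fold change 0.28, 95% interval -0.07 to 0.62, edgeR adjusted p = 0.175). The median was 1.21 over the keratins and -0.021 over all genes.

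**Figure D2:**
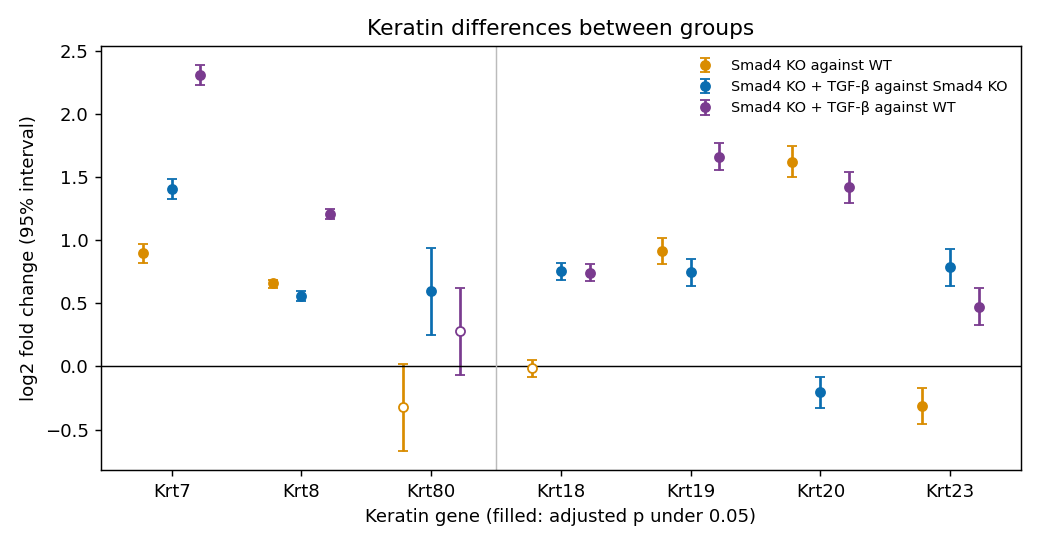
Log2 fold changes of the 7 keratins with 95% intervals from the edgeR fit in the 3 comparisons, filled where the adjusted p was under 0.05. Krt7 has the highest value with TGF-β in both treated comparisons, and the intervals of Krt18 and Krt80 cross 0 in Smad4 KO against WT.

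To compare genes with each other, CPM was divided by the length of the merged exons in kb. On this scale Krt8 led in every group, at 1130 ± 2.37 CPM per kb in WT (SD, n = 2), 1780 ± 20 in Smad4 KO and 2621 ± 44.8 with TGF-β, which put it at rank 30, 16 and 7 of 31207 genes. Krt19 followed at 596.2 ± 18.4, 1125 ± 42.4 and 1887 ± 96.9 CPM per kb, at rank 76, 30 and 13. Krt18 came next at 501.6 ± 12.0, 496.8 ± 7.46 and 840.4 ± 8.66 CPM per kb, at rank 90, 95 and 41. These 3 genes kept their order in every library, with no overlap between neighbours.

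The lower ranks changed places between groups. In WT the order was Krt23 (56.7 CPM per kb), Krt20 (40.9), Krt7 (35.8) and Krt80 (1.52). In Smad4 KO it was Krt20 (126), Krt7 (66.5), Krt23 (45.6) and Krt80 (1.22), and with TGF-β Krt7 (177), Krt20 (109.4), Krt23 (78.6) and Krt80 (1.84). Libraries of neighbours in these orders did not overlap. The place of Krt7 in WT depended on the length used, since its merged exons (7049 bp) are longer than its longest transcript (4094 bp). By the longest transcript Krt7 stood at 61.6 CPM per kb in WT, above Krt23.

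The 7 keratins together took 0.458% and 0.464% of all units in the WT libraries, 0.676% and 0.694% in Smad4 KO and 1.13% and 1.15% with TGF-β. Their summed level was 2363, 3642 and 5716 CPM per kb on average. Within this sum the share of Krt8 was 47.8% ± 0.71 (SD, n = 2) in WT, then 48.9% ± 0.46 in Smad4 KO, then 45.9% ± 1.2 with TGF-β. The type I side shifted in make-up: Krt18 held 21.2% in WT but 13.6% in Smad4 KO and 14.7% with TGF-β, while Krt19 held 25.2%, 30.9% and 33.0%. Krt7 held 1.51%, 1.83% and 3.1%, and Krt20 1.73%, 3.46% and 1.91%.

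Since a filament takes type II and type I chains in equal number, the ratio of summed transcript levels was followed as well. Type II over type I was 0.999 and 0.956 in the WT libraries, 1.04 and 1.02 in Smad4 KO and 0.996 and 0.927 with TGF-β, per kb of merged exons. The ratio stayed near 1 while the summed level rose from 2363 to 5716 CPM per kb, but its value depends on the length: by the longest transcript the group means were 0.919, 0.952 and 0.902, and with no division by length 1.24, 1.27 and 1.27. The single pair Krt8 over Krt18 moved instead, from 2.3 and 2.21 in WT to 3.59 and 3.57 in Smad4 KO and 3.18 and 3.06 with TGF-β. Krt19 over Krt18 was 1.18 and 1.19 in WT, 2.23 and 2.3 in Smad4 KO and 2.18 and 2.31 with TGF-β, so the treated and untreated Smad4 KO libraries overlapped. Exact permutation tests (2-sided) of the ratios between groups separate none of them, type II over type I included, since p = 0.333 is the smallest that 2 against 2 libraries can give.

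**Figure D3:**
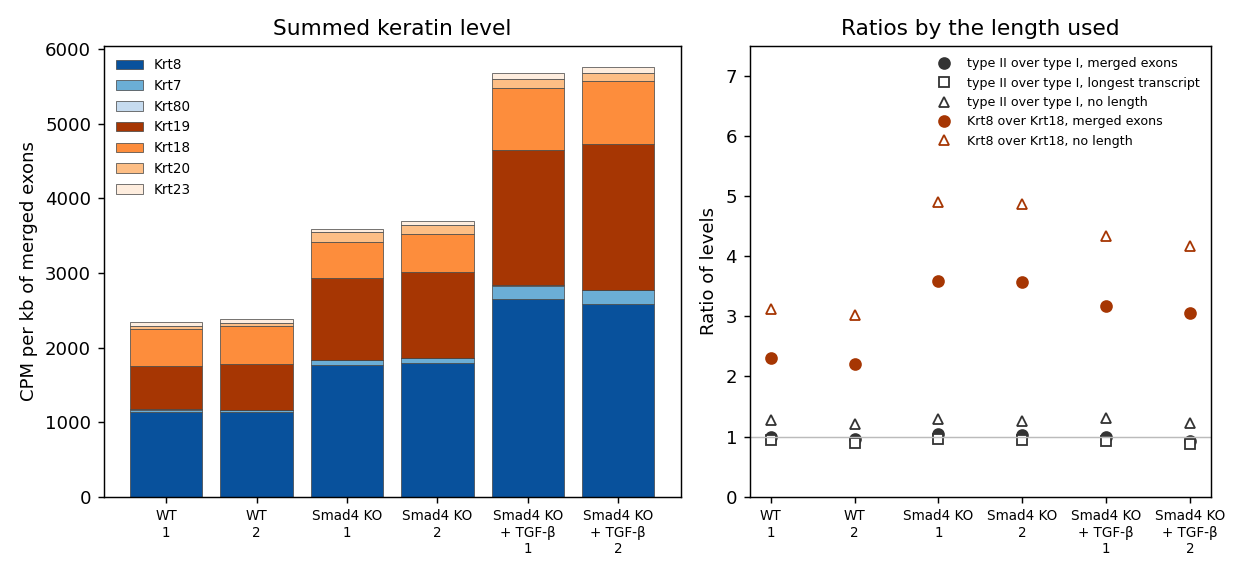
Left, CPM per kb of merged exons stacked over the 7 keratins (blues type II, oranges type I) in each library. Right, ratios of levels per library by the length used, where type II over type I (black) lies close to the grey line at 1 with a length and above it with none, and Krt8 over Krt18 (red) is lowest in WT.

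The profiles were also compared with each other and with all genes, by the Euclidean distance between log2 CPM values centred on their mean over the 6 libraries. Among the members the closest pairs were Krt23 and Krt80 (0.274), Krt18 and Krt23 (0.338) and Krt8 and Krt19 (0.465), and the farthest was Krt7 and Krt80 (2.057). Among 10364 other genes with at least 5 CPM on average, the nearest to Krt7 were Ahnak (0.191), which encodes a giant scaffold protein, and Pir (0.216). Nearest to Krt8 were Abhd2 (0.107) and Pold4 (0.114), to Krt19 Rflnb and Chd3 (both 0.136), and to Krt18 Ddr1 (0.086), a collagen receptor, and Macf1 (0.088), a cytoskeletal linker. Nearest to Krt20 were Slc7a9 (0.127), an amino acid transporter subunit of absorptive epithelium, and Mgst2 (0.131). For Krt23 they were Cttnbp2nl (0.09) and Wwtr1 (0.095), which encodes the coactivator TAZ, and for Krt80 Pla2g12a (0.091) and Card10 (0.126). These are descriptions over 6 libraries that share the same 3 groups.

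Other keratins were scarce. Of 53 keratin genes in the table, 46 were not members, 20 of these were at 0 in every library and 15 were tested, and the 7 members held 99.26% to 99.7% of all keratin units. Krt4, a type II keratin of stratified internal epithelium such as the oesophagus, stood at 1.872 and 2.738 CPM in WT libraries, 10.003 and 10.506 CPM in Smad4 KO and 62.44 and 58.13 CPM with TGF-β. Its groups did not overlap, and it was 4.47-fold higher in Smad4 KO than in WT (edgeR adjusted p = 0.000317) and 5.88-fold higher again with TGF-β (edgeR adjusted p = 0.000222). Krt79 was read at 0.115 and 0 CPM in WT libraries, 0.585 and 0.619 CPM in Smad4 KO and 5.969 and 4.902 CPM with TGF-β (edgeR adjusted p = 0.027 and 0.0202 for the 2 steps). Both Krt79 calls were lost in some fits that left out a library, with adjusted p up to 0.0753 and 0.116, and the first also in a fit of the 4 libraries compared.

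Krt14, the type I keratin of basal cells, was at 0 in WT and Smad4 KO and at 1.388 and 0.935 CPM with TGF-β, at least 7.7-fold higher than in Smad4 KO against a floor of 3 fragments over the group (edgeR adjusted p = 0.0299, 0.0779 to 0.189 without either library of these 2 groups). Its usual partner Krt5 was at 0 in all 6 libraries. Krt6a, a keratin of stressed stratified epithelium, was at 0 in WT and Smad4 KO and at 0.416 and 1.14 CPM with TGF-β (edgeR adjusted p = 0.0607 against Smad4 KO and 0.0281 against WT, the latter 0.0806 to 0.191 without either library of these 2 groups). Krt14 and Krt6a passed the low-count filter only through the treated libraries, so they could be called only as higher there. Of the 14 stratified and basal keratins 7 were tested. Of these, 2 were higher in Smad4 KO against WT, 3 with TGF-β over Smad4 KO and 4 over WT, with 0 lower. Of all genes tested, 16.9%, 7.78% and 20.7% were called higher in these comparisons, and 13.4%, 8.48% and 19.0% lower. Apart from Krt14 and Krt6a, Krt4 and Krt79 were the ones called, and no WT library of Krt79 reached the filter either.

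**Figure D4:**
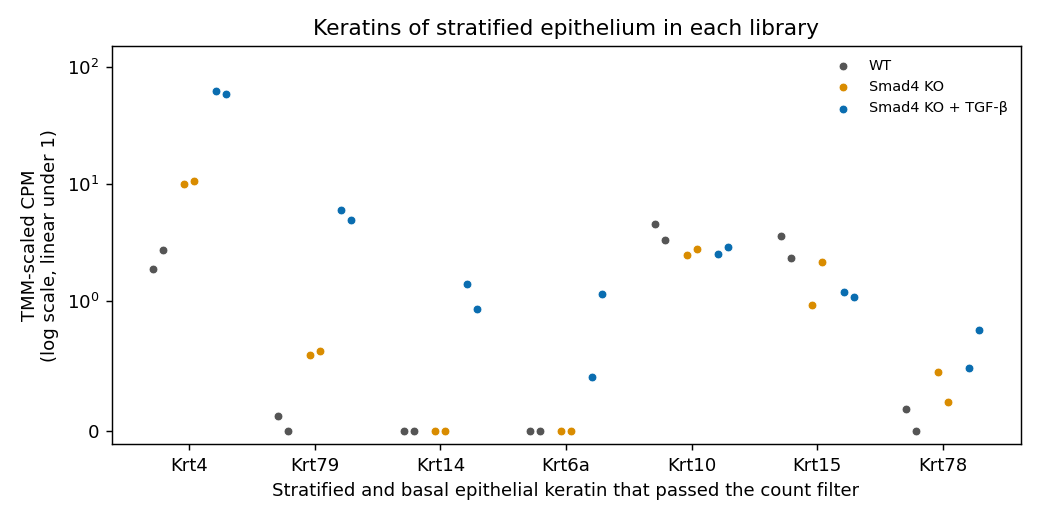
TMM-scaled CPM of the 7 stratified and basal keratins that passed the filter, with 1 point per library (log axis, linear under 1). Krt4 is the single one above 10 CPM, and Krt14 and Krt6a lie above 0 in the treated libraries alone.

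Squamous differentiation genes, which build the cornified envelope of stratified epithelium, were read beside these keratins. Of 9 on the list 5 were tested, and 4 rose in Smad4 KO, 3 with TGF-β over Smad4 KO and 5 over WT, with 0 lower. Of all genes tested, 16.9%, 7.78% and 20.7% were called higher in these comparisons, and 13.4%, 8.48% and 19.0% lower. The squamous genes called include Ivl, which no WT library brought past the low-count filter, so it could be called only as higher than WT. Lor, a cornified envelope protein, went from 0.286 and 0.319 CPM in WT to 7.661 and 9.713 CPM in Smad4 KO and 42.5 and 39.12 CPM with TGF-β, and passed at both steps (edgeR adjusted p = 1.57e-05 and 0.000239). Sprr1b, Krtdap and Sprr3 were at 0 in all libraries. The 6 mesothelial and urothelial markers, from other tissues rich in simple keratins, summed to 34.0 to 40.7, 17.2 to 18.1 and 10.6 to 13.6 CPM in WT, Smad4 KO and the treated group. Most of this was Upk3b, at 37.11 and 31.67 CPM in WT, the single 1 of 4 tested that passed in each comparison, lower each time (with TGF-β over Smad4 KO, edgeR adjusted p = 0.0528 without Smad4 KO + TGF-β replicate 2). The 9 fetal and regenerative epithelium markers summed to 162.0 to 185.3, 584.8 to 607.2 and 3270 to 3353 CPM. This is the order of groups of Krt7, Krt8 and Krt19, and the sum of the squamous list had it too. The squamous list summed to 605.0 to 669.1, 1364 to 1377 and 2207 to 2252 CPM. Most of this was Sprr2a1 in every library, at 618.86 and 555.45 CPM in WT. It stood at 1271.92 and 1291.84 CPM in Smad4 KO and 1976.74 and 2014.06 CPM with TGF-β. In the fetal and regenerative list, Clu alone gave 2003.87 and 2066.11 CPM of the treated sum. Of 8 tested, 6 were higher and 1, Ly6a, lower in Smad4 KO against WT, beside 16.9% and 13.4% of all genes. The 1 lower is a share near that of all genes. With TGF-β over Smad4 KO 7 were higher and 0 lower, beside 7.78% and 8.48%. Some of these 8, Spp1 among them, had no WT library past the filter, so against WT they could be called only as higher. Clu, Ly6a, Spp1, Fcgbp and Ivl were named after their values were seen. The part of these lists in the keratin results was not tested.

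Keratin filaments are anchored at desmosomes, cell junctions whose inner plaque holds desmoplakin, and are linked to other structures by plakins. Of 13 desmosome and plakin genes, all tested, 10 rose and 1 fell in Smad4 KO against WT, 9 rose and 1 fell with TGF-β over Smad4 KO, and 11 rose and 1 fell with TGF-β over WT. Of all genes tested, 16.9% were called higher and 13.4% lower in the first of these comparisons, 7.78% and 8.48% in the second, and 20.7% and 19.0% in the third. The median log2 fold changes of the list were 0.51, 0.37 and 0.92. Dsp, which encodes desmoplakin, stood at 544.02 and 520.47 CPM in WT libraries, 962.52 and 972.97 CPM in Smad4 KO and 1695.8 and 1733.05 CPM with TGF-β, climbing in both steps as Krt8 and Krt19 did (1.82-fold, edgeR adjusted p = 5.94e-06, then 1.77-fold, edgeR adjusted p = 2.44e-05). Pkp1, a plakophilin of the plaque, dipped to 57.32 and 60.28 CPM in Smad4 KO from 73.37 and 73.22 CPM in WT and reached 117.83 and 124.59 CPM with TGF-β. The Pkp1 dip had an edgeR adjusted p of 0.00934 (0.0508 without WT replicate 1), and its later rise one of 0.000143. Eppk1, the plakin epiplakin, which binds keratins, was the gene that fell with TGF-β, from 223.22 and 227.83 CPM to 170.49 and 166.63 CPM (edgeR adjusted p = 0.00116).

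**Figure D5:**
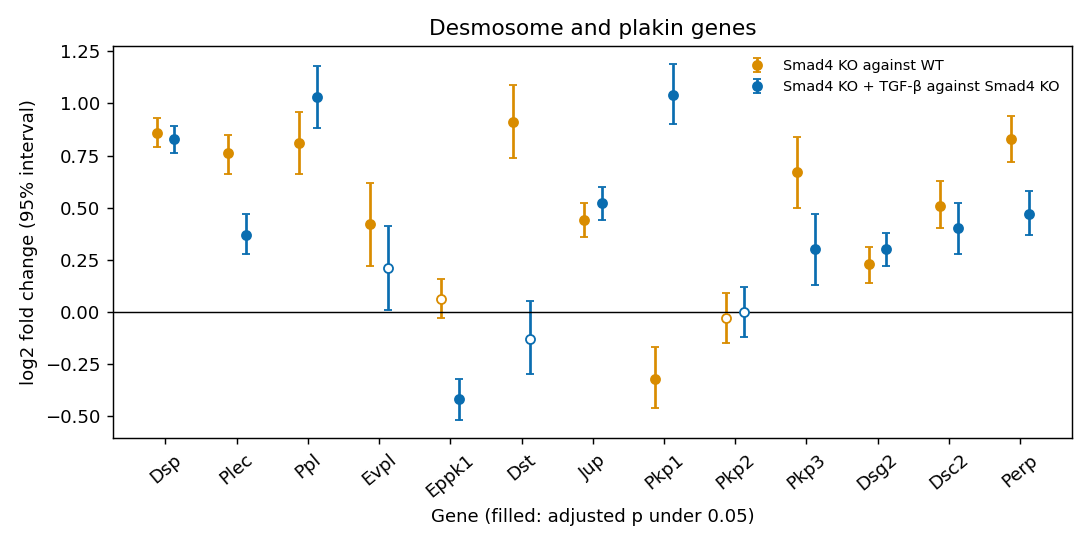
Log2 fold changes of the 13 desmosome and plakin genes with 95% intervals, for Smad4 KO against WT (orange) and Smad4 KO + TGF-β against Smad4 KO (blue), filled where the edgeR adjusted p was under 0.05. Dsp lies above 0 in both, and Pkp1 and Eppk1 each have 1 called value below 0.

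Of 10 genes listed as binding or modifying keratins, 6 rose and 1 fell in Smad4 KO (all genes, 16.9% and 13.4%). With TGF-β over Smad4 KO 2 rose and 2 fell (all genes, 7.78% and 8.48%). With TGF-β over WT 7 rose and 2 fell (all genes, 20.7% and 19.0%). Their median log2 fold changes were 0.36, -0.06 and 0.38, and 1 of those that rose over WT, Hspb1, had no WT library past the filter. The list holds Krtcap2, keratin-related by name but with another function given below. It was the 1 that fell in Smad4 KO, and 1 of the 2 that fell in each treated comparison. Sfn, an epithelial member of the 14-3-3 family, which binds phosphorylated keratins, stood at 58.46 and 62.98 CPM in WT libraries, 86.26 and 83.58 CPM in Smad4 KO and 169.33 and 171.3 CPM with TGF-β (edgeR adjusted p = 0.00151 and 0.000146 for the steps). Fam83h, which helps to organise keratin filaments, was 1.44-fold higher with TGF-β (edgeR adjusted p = 0.0031). Krtcap2, named as keratinocyte-associated but a subunit of the N-glycosylation complex, fell at both steps (edgeR adjusted p = 0.0482 and 0.00936), the first of which was lost without any 1 library of WT or Smad4 KO.

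Of 13 transcription factors of epithelium, 12 were tested, and 7 rose and 0 fell in Smad4 KO, 5 rose and 2 fell with TGF-β over Smad4 KO, and 6 rose and 0 fell with TGF-β over WT (median log2 fold changes 0.17, -0.03 and 0.08), beside the same shares of all genes. Grhl3, a grainyhead factor of surface epithelium, went from 2.349 and 1.643 CPM in WT to 8.068 and 9.862 CPM in Smad4 KO and 36.07 and 38.16 CPM with TGF-β (edgeR adjusted p = 0.000489 and 0.000866). Klf5, a factor of proliferating epithelium, was 1.52-fold higher in Smad4 KO (edgeR adjusted p = 4.06e-05) and 1.15-fold higher again with TGF-β (edgeR adjusted p = 0.00664). The pair that fell with TGF-β was the intestinal factor Cdx1 (edgeR adjusted p = 0.00729, 0.0501 without Smad4 KO + TGF-β replicate 1) and Ovol1 (edgeR adjusted p = 0.0331, up to 0.137 with a library left out), both named after their values were seen.

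Of 9 filament genes of other classes 6 were tested, and 1 rose and 3 fell in Smad4 KO, 2 rose and 0 fell with TGF-β over Smad4 KO, and 1 rose and 3 fell with TGF-β over WT (median log2 fold changes -0.24, -0.01 and -0.13). Of all genes tested, 16.9%, 7.78% and 20.7% were called higher in these comparisons, and 13.4%, 8.48% and 19.0% lower. The 1 that rose in Smad4 KO and the 1 that rose with TGF-β over WT are shares near those of all genes called higher. Lmna, the nuclear lamin A/C gene, was the one that rose throughout, from 92.68 and 75.55 CPM in WT to 145.0 and 147.38 CPM in Smad4 KO and 243.13 and 244.74 CPM with TGF-β (edgeR adjusted p = 0.00134 and 0.00327). Vim, the filament gene of mesenchymal cells, fell from 16.63 and 15.93 CPM in WT to 5.6 and 6.566 CPM in Smad4 KO (edgeR adjusted p = 0.00891, 0.0534 without Smad4 KO replicate 1), and stood at 3.239 and 5.654 CPM with TGF-β. Des, of muscle, was at 0 in all libraries.

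Shared sequence limits some of these values, since the strand setting of the counting is not given in the sources used here. Exons of a gene on the opposite strand cover 1.09% of the Krt7 exon length, 5.16% of that of Krt8 and 4.11% of that of Krt80. Krt8 has a pseudogene transcript 98.618% identical over 941 bp (Krt8-ps), and Krt18 has Gm5200, 90.45% identical over 1267 bp. Neither copy is among the genes of the table, so its own level is not seen. How reads that fit both a keratin and its copy were assigned is not known here.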

How the data were processed

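RNA from 6 libraries was measured, grouped by title. The authors deposited estimated counts per Ensembl gene, as whole numbers. The tools listed in the submitters' processing notes are StringTie 1.3.3b, HISAT2 2.1.0, FastQC 0.11.9 and SAMtools 1.9, with build GRCm38. Not given in the sources used here are annotation release, strand setting and conversion to counts. Multiples of 4 made up 42.3% of values from 1 to 24 (25% if spread evenly), so a fragment was taken to add 4 units, and the floor of 3 fragments per group to be 12 units. This is an inference.

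Genes were filtered with filterByExpr and scaled by TMM, and edgeR 4.0.16 (quasi-likelihood test, 2-sided, R 4.3.3) was fitted to all 6 libraries with a group term alone, leaving 3 residual degrees of freedom. Adjusted p-values are Benjamini-Hochberg over 15503 genes, with a threshold of 0.05, and ± after a log2 fold change is its SE. The script was tested on simulated data. Alternatives were DESeq2 1.42.0 and its size factors, no filter, only the 4 libraries compared, a replicate block, values divided by 4, each library left out and other gene lengths. Replicate numbers did not pair the libraries (correlations of deviations 0.001 to 0.014). Near-identical copies (at least 90% identity across 300 bp or more) were searched with BLAST 2.17.0 in GENCODE vM21 transcripts. Promoter windows come from RefSeq.

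Beside the keratins, the genes named were Smad4, up to 3 genes with the smallest adjusted p per list and comparison, some of which are left out here, the 2 nearest profiles per keratin, and a few named for their counts of 0 or after their values were seen. Members and lists were chosen with earlier results of these data known.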

Additional observations from a re-analysis of the deposited data

How the results depend on the processing

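Of 21 keratin values (7 genes in 3 comparisons), 17 kept their direction and side of the threshold in all 12 alternatives. The exceptions were Krt18 and Krt23 in Smad4 KO against WT and Krt20 and Krt80 in Smad4 KO + TGF-β against Smad4 KO. The log2 fold change of Krt18 in Smad4 KO against WT ran from -0.033 to 0.011 with libraries left out in turn. It turned to a log2 fold change of 0.011 (edgeR adjusted p = 0.844) without WT replicate 2 and 0.002 (edgeR adjusted p = 0.988) without Smad4 KO replicate 1. With libraries left out in turn, the number of keratins called was 4 higher and 0 to 1 lower in Smad4 KO against WT, 5 higher and 0 to 1 lower in Smad4 KO + TGF-β against Smad4 KO, and 6 higher and 0 lower against WT. Genes called then numbered 3231 to 4305, 1504 to 2304 and 4554 to 6012 in the 3 comparisons. The lone library of a group was then assumed to vary like the others.

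With a replicate block, genes called numbered 4184, 2153 and 5667, and keratins called lower in Smad4 KO + TGF-β against Smad4 KO went from 1 to 0 (Krt20, edgeR adjusted p = 0.0803). Krt80 had an edgeR adjusted p of 0.0652 there. DESeq2 called 5326, 3285 and 6596 genes. No scaling moved the median log2 fold change by more than 0.014.

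Group means in the order WT, Smad4 KO and Smad4 KO + TGF-β follow. Type II over type I was 0.977, 1.03 and 0.961 by merged exons, 0.919, 0.952 and 0.902 by the longest transcript, 0.919, 0.953 and 0.902 by the principal transcript (chosen after seeing the data), and 1.24, 1.27 and 1.27 with no length. Krt8 over Krt18 was 2.25, 3.58 and 3.12 by merged exons and 3.07, 4.88 and 4.25 with no length. Length sets these ratios by its construction, and the cause of the other changes was not tested. Among the 7 keratins, Krt80 had the fewest units and the widest intervals.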
